A study of Mus musculus with 10 samples.

Results

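Immediate early genes are the genes that neurons and other cells switch on within minutes of a stimulus, from factors that are already present in the cell. Described here are 10 of them, Fos, Fosb, Junb, Egr1, Arc, Npas4, Nr4a1, Ier2, Dusp1 and Fosl2, taken by symbol from the 53379 genes counted in each of 10 RNA-seq libraries. All 10 were found under 1 gene identifier each, and all 10 passed the filter on low counts. They were chosen because the study tagged active cells of ventral CA1, the output field of the ventral hippocampus, through the promoter of 1 of them, c-Fos.

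Tagging relied on the virus AAV9-c-Fos-tTA, whose c-Fos promoter makes the transactivator tTA, together with AAV9-TRE-ChR2-EYFP, which tTA turns on unless doxycycline (Dox) is given. Cells active while Dox was withdrawn went on to make the fluorescent fusion ChR2-EYFP. Dox was then restored, and the hippocampi were taken later, dissociated with warm enzymes and sorted for EYFP. The aversive group (2 libraries, labelled replicates 1 and 3) was given 4 shocks to the feet, with a current of 1.5 mA and a length of 2 s. Males of the appetitive group (2 libraries, replicates 1 and 2) spent 1 h with a female, as the labels have it. The neutral group (3 libraries) was placed in the same conditioning cage without either stimulus. The mock group (3 libraries) came from males kept in their home cage by the labels, and the study's methods call it an untagged control. The shared labels name all mice as 5-week-old males labelled with ChR2-YFP, and give 8 pooled animals per condition. Whether the mock animals carried the viruses, whether mock was sorted for EYFP, and whether replicates of a group came from separate pools is not settled by these labels. The methods count only 2 mice for mock, fewer than its 3 libraries, so at least some mock libraries would share an animal, and the SDs, n and p-values that involve mock are over libraries and not animals. If the replicates of a group share a pool, the p-values measure only technical spread. Both viruses reach any cell type they infect, so the tag marks c-Fos promoter activity and not a cell class.

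Fos, Fosb, Fosl2 and Junb encode subunits of the dimeric transcription factor AP-1. Egr1, Npas4 and Nr4a1 encode other transcription factors, of which Npas4 is known as a neuron-specific gene that answers to calcium entry. Arc, Ier2 and Dusp1 are the members outside these families: Arc acts at synapses, where it takes part in the removal of AMPA receptors, Ier2 is a small nuclear regulator, and Dusp1 is a phosphatase that switches off MAP kinases, the enzymes that induce the family. The mRNAs of these genes are known to be short-lived, so that their level follows recent induction, and glia and tissue dissociation are known to induce them too.

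The promoter of Fos is shown because a c-Fos promoter carried the tag, that of Npas4 because its gene was at 0 in most libraries, and that of Dusp1 because Dusp1 had the highest correlation with Fos among the members. Each sequence is the 250 bases before the start in RefSeq (GRCm38.p6), 5′ to 3′ on the gene's strand, with matches in capitals. The windows are chr12:85473640-85473889 (+) for Fos, chr19:4989972-4990221 (-) for Npas4 and chr17:26508473-26508722 (-) for Dusp1. They are the genomic sequences and not the promoter fragment of the virus.

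Fos: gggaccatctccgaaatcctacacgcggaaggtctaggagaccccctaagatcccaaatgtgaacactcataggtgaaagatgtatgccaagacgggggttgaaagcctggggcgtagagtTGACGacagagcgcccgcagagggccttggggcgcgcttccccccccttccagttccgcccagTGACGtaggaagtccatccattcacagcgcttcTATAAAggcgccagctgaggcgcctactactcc

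Npas4: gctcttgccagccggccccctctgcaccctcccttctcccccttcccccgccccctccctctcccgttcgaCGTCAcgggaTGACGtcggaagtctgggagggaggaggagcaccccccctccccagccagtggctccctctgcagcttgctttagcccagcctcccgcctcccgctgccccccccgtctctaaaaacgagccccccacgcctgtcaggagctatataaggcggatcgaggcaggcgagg

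Dusp1: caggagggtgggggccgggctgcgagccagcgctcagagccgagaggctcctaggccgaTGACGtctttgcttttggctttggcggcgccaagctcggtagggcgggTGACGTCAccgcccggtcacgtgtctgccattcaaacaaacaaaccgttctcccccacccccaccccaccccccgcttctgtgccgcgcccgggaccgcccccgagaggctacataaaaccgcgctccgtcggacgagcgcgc

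The capitals mark the cyclic AMP response element (CRE, TGACGTCA), its core (CGTCA), and the TATA box (TATAAA), searched on both strands. The window of Fos held CRE cores that begin 129 and 66 bases before the start and a TATA box that begins 33 bases before it. The window of Npas4 held CRE cores 179 and 169 bases before the start. That of Dusp1 held a full CRE 143 bases before the start, which itself contains 2 CRE cores, and another CRE core that begins 191 bases before it. Of 32851 promoters in the table, 1.55% held the CRE, 17.8% the CRE core and 12.4% the TATA box. Fosb, Junb and Nr4a1 also had a CRE core in their windows and Fosl2 had none. Fosb, Nr4a1 and Fosl2 held a match to the EGR site (GCGNGGGCG), which 4.70% of promoters have. None of the 7 windows matched the AP-1 site (TGANTCA, 6.75% of promoters) or the CArG box (1.47%) in these letters. The promoters of Egr1, Arc and Ier2 were not analysed here.

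The libraries held 16968588 to 67650693 counts. Levels are given in CPM, the counts scaled to a common library size, and 3 counts, the smallest level taken as detectable, are worth 0.0346 to 0.234 CPM. The neutral libraries were made with another kit (SMART-Seq v4 Ultra Low Input) on another sequencer, with reads of 100 bp against 40 bp, so kit and neutral conditioning cannot be told apart. Markers of other cell types outweighed those of neurons in every library. The summed level of 11 neuron markers was 75.87 to 776.5 CPM, against 7441 to 801500 CPM for 8 oligodendrocyte markers. Of the 11 neuron markers, from 0 (aversive replicate 3) to 5 (neutral replicate 1) had at most 3 counts in a tagged library, and none had so few in mock. The same share over all genes was not computed. Microglia markers summed to 41.92 to 451.5 CPM in the neutral libraries and to 1099 to 10440 CPM in the other 7, and choroid plexus markers to 21170 to 130700 CPM against 940.6 to 13690 CPM. In such material, fewer cells of a type and less RNA per cell cannot be told apart.

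Fos itself was among the most abundant transcripts of every library, tagged or mock. Its gene (ENSMUSG00000021250, chr12:85473890-85477273, + strand) was at 454.3, 1645 and 1591 CPM in mock, 917.2 and 145.6 CPM in aversive, 1053 and 1529 CPM in appetitive, and 1050, 800.5 and 233.8 CPM in neutral libraries. On a scale of CPM per kb of exon, Fos stood above 97.7% to 99.9% of protein-coding genes, and it was the highest of the 10 members in 8 of 10 libraries. The mock libraries were thus not low in Fos: only aversive replicate 3 and neutral replicate 3 fell below all 3 of them. The group means were 1230 ± 672 CPM in mock (SD, n = 3), 531.4 ± 546 CPM in aversive (n = 2), 1291 ± 337 CPM in appetitive (n = 2) and 694.9 ± 418 CPM in neutral (n = 3).

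**Figure D1:**
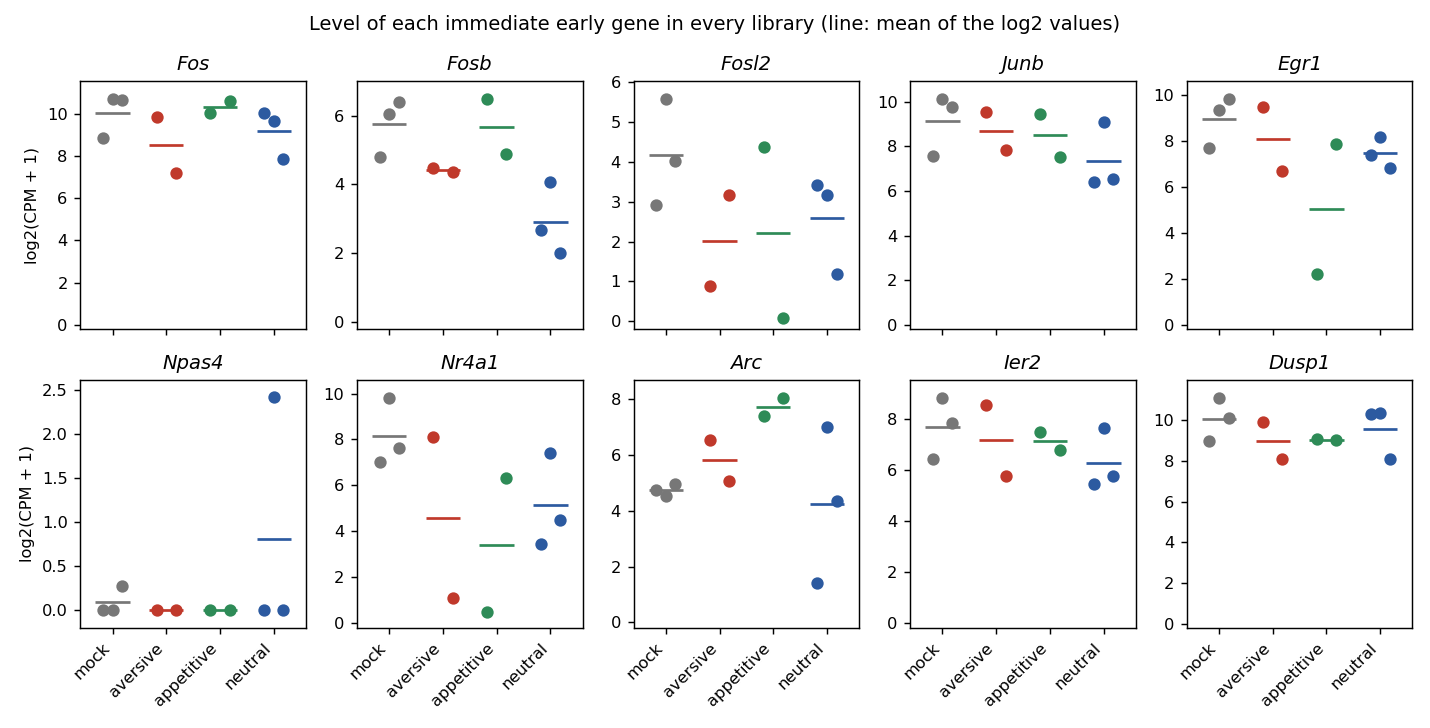
Level of each of the 10 genes as log2(CPM + 1) on the vertical axis in the 4 groups, with 1 point per library and a line at the mean of the log2 values. In the panel of Fos the mock and appetitive points lie in 1 range, Npas4 is at 0 in 8 of 10 libraries, and the 3 mock points of Arc lie below both the aversive and both the appetitive points.

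The comparison of Fos between groups gave no call. The log2 fold change from mock was -1.21 in aversive (SE 0.907, 95% interval -3.21 to 0.78, edgeR adjusted p = 0.645), 0.07 in appetitive (SE 0.87, interval -1.84 to 1.98, adjusted p = 0.969) and -0.82 in neutral libraries (SE 0.785, interval -2.55 to 0.90, adjusted p = 0.789). The intervals allow a Fos level in appetitive cells anywhere from 0.279 to 3.95 times that in mock. The sign in appetitive against mock was negative, at -0.34, with library size alone as the scale, and -0.44 among genes with at least 10 counts in every library. In CPM every appetitive library was above both aversive ones, but with library size alone as the scale appetitive replicate 1 would be below aversive replicate 1. Between appetitive and aversive libraries the log2 difference was 1.28 (SE 0.97, adjusted p = 0.528). Without aversive replicate 3 that difference was 0.48.

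Fosb is an AP-1 subunit whose long-lived variant is known to build up with repeated activity. It was lower than Fos in every library and, in CPM, lowest in the neutral libraries. Its levels (ENSMUSG00000003545, chr7:19302696-19310051, - strand) were 26.97, 65.56 and 83.46 CPM in mock, 21.35 and 19.56 CPM in aversive, 88.36 and 28.36 CPM in appetitive, and 5.45, 15.73 and 3.02 CPM in neutral libraries. In CPM all 3 neutral libraries were below the 7 others, and both aversive libraries were below all of mock. By total counts neutral replicate 2 (1363 of 67650693) was above aversive replicate 1 (427 of 27159427). Aversive replicate 3 (977 of 39172609) was then above mock replicate 1 (678 of 29194873). Against mock, the neutral difference was -2.86 on the log2 scale (SE 0.989, interval -5.04 to -0.69, edgeR adjusted p = 0.224). Appetitive libraries exceeded neutral ones by 2.85 (SE 1.04, interval 0.56 to 5.15, edgeR adjusted p = 0.106). Both of these comparisons passed in DESeq2, with adjusted p = 0.0256 and 0.00803, and both set the kit of the neutral libraries against the other kit. Aversive against mock, within 1 kit, was -1.52 (SE 1.09, adjusted p = 0.628).

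Junb, an AP-1 partner of the Fos proteins, was abundant in every library. It was at 186.5, 1108 and 868.4 CPM in mock, 746.9 and 226.6 CPM in aversive, 701.3 and 183.2 CPM in appetitive, and 82.54, 549.7 and 91.57 CPM in neutral libraries (ENSMUSG00000052837, chr8:84974484-84978718, - strand). The groups overlapped throughout. Its exons overlap those of Prdx2 on the other strand, and the counts ignored strand, so reads of the overlap cannot be told apart. Its differences from mock lay between -0.57 in aversive (SE 1.06, adjusted p = 0.892) and -1.58 in neutral libraries (SE 0.953, adjusted p = 0.56).

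Fosl2, which encodes Fra-2, was the least abundant of the AP-1 members. Its levels were 6.56, 46.78 and 15.24 CPM in mock, 0.85 and 7.93 CPM in aversive, 19.77 and 0.0523 CPM in appetitive, and 9.71, 7.94 and 1.27 CPM in neutral libraries (ENSMUSG00000029135, chr5:32135801-32157842, + strand). The appetitive pair was 378 times apart, and the lower of the pair rests on 1 count. Its difference from mock was -2.38 in aversive (SE 2.02, adjusted p = 0.702), -1.21 in appetitive (SE 1.91, adjusted p = 0.708) and -1.86 in neutral libraries (SE 1.69, adjusted p = 0.773).

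Among the other transcription factors, the zinc finger factor Egr1 had 1 library far below the rest. It was at 204.4, 649.2 and 910.9 CPM in mock, 710.9 and 104.3 CPM in aversive, 3.59 and 231.9 CPM in appetitive, and 169.7, 288.2 and 112.7 CPM in neutral libraries (ENSMUSG00000038418, chr18:34859823-34864984, + strand). Appetitive replicate 1 was far below the other 9 libraries, with 46 counts, while Fos in the same library was at 1053 CPM. Appetitive against mock gave -2.32 on the log2 scale (SE 1.39, adjusted p = 0.303). Without appetitive replicate 2, which leaves that low library alone and assumes that it varies like the others, Egr1 passed in 4 comparisons: appetitive against mock (-7.52, adjusted p = 0.0347), appetitive and aversive together against mock (-4.04, adjusted p = 0.0408), appetitive against neutral (-5.81, adjusted p = 0.0483) and appetitive against aversive (-6.97, adjusted p = 0.0404). In that setting 6.01%, 5.90%, 9.31% and 6.16% of all tested genes passed in the same order.

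Nr4a1, the orphan nuclear receptor Nur77, shared the gap of Egr1 in appetitive replicate 1. Its levels were 127.3, 904 and 196 CPM in mock, 274.1 and 1.14 CPM in aversive, 0.391 and 79.07 CPM in appetitive, and 10.07, 168.3 and 21.77 CPM in neutral libraries (ENSMUSG00000023034, chr15:101254269-101274795, + strand). Both appetitive libraries were below all of mock, and the highest library of all 10 was 2310 times the lowest. The difference of appetitive from mock was -3.36 (SE 2.25, interval -8.32 to 1.60, adjusted p = 0.349). With no filter on low counts it was -3.37 with an adjusted p = 0.0473, a setting in which 3.19% of genes passed.

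Npas4 was barely detected. It had 15 counts in mock replicate 3 (0.207 CPM), 377 counts in neutral replicate 2 (4.35 CPM) and 0 counts in the other 8 libraries (ENSMUSG00000045903, chr19:4984355-4990316, - strand). All 4 aversive and appetitive libraries were at 0, where 3 counts would have been 0.0601 to 0.234 CPM. A fold change is not given, because the groups are at or near 0 and 1 library holds nearly all counts. At 52.5%, its rank among protein-coding genes in neutral replicate 2 was its highest.

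**Figure D2:**
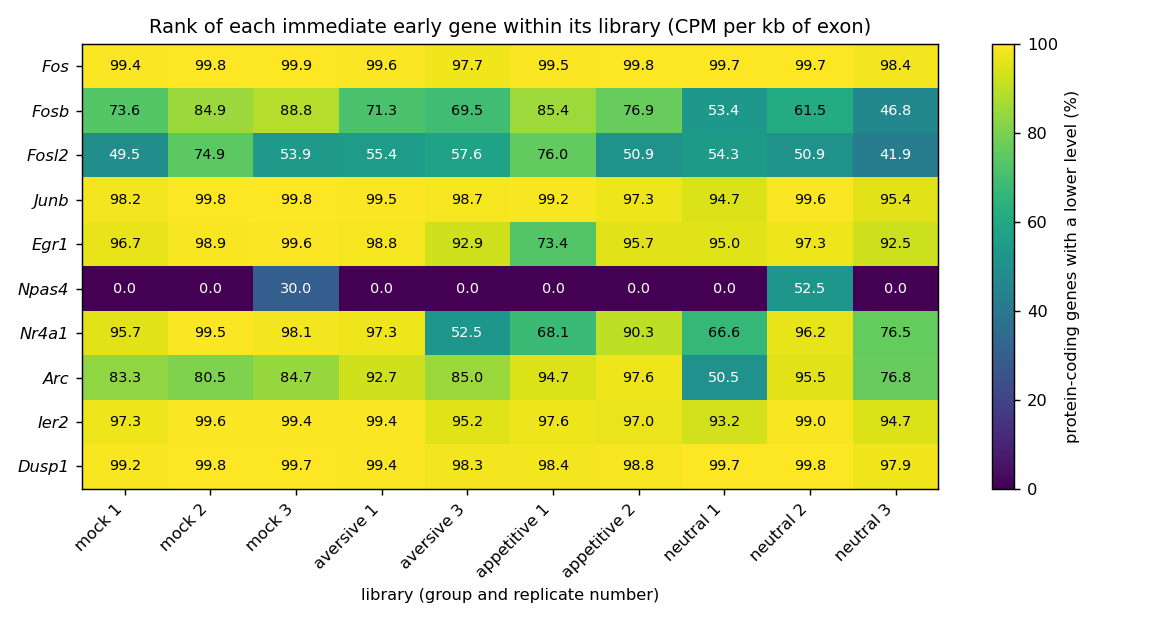
Percentage of protein-coding genes with a lower level (CPM per kb of exon) than each of the 10 genes (rows) in each library (columns), as number and color. Fos, Junb, Ier2 and Dusp1 lie above 93% in every library, and Npas4 is at 0 in 8 of 10.

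Arc had the largest positive difference from mock among the members measured with 1 kit. Its levels were 25.82, 22.22 and 30.36 CPM in mock, 91.84 and 32.83 CPM in aversive, 167.3 and 266.6 CPM in appetitive, and 1.62, 128.2 and 19.36 CPM in neutral libraries (ENSMUSG00000022602, chr15:74669083-74672570, - strand). In CPM the 3 mock libraries were close together and all 4 aversive and appetitive libraries were above them. The neutral libraries ran from the lowest of all to above both aversive ones. By total counts, aversive replicate 3 (1640 of 39172609) was below mock replicate 3 (2199 of 49880042). Appetitive libraries averaged 216.9 ± 70.2 CPM (n = 2) against 26.13 ± 4.08 CPM in mock (n = 3), a log2 fold change of 3.05 (SE 1.28, interval 0.24 to 5.86) whose edgeR adjusted p = 0.185 did not pass. For the aversive and appetitive libraries as 1 group the difference was 2.15 (SE 1.13, interval -0.33 to 4.64, adjusted p = 0.269), and for aversive alone 1.25 (SE 1.24, adjusted p = 0.752). In a fit of the appetitive and mock libraries alone it was 3.14 with an adjusted p = 0.0417, where 21.8% of all genes passed. Appetitive against neutral was 2.12 (SE 1.25, adjusted p = 0.262). The neuron markers summed to 776.5 and 178.0 CPM in appetitive replicates 1 and 2 and to 222.8 to 389.4 CPM in mock. Most of both appetitive sums was Snap25, at 576.6 and 153.9 CPM. The part of neuron content in the levels of Arc was not tested.

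Ier2 and Dusp1 were high in every library and overlapped between all groups. Ier2 was at 85.89, 458.7 and 226.9 CPM in mock, 379.8 and 53.1 CPM in aversive, 178 and 110.3 CPM in appetitive, and 42.49, 202 and 53.31 CPM in neutral libraries (ENSMUSG00000053560, chr8:84661331-84662852, - strand). Dusp1 was at 499, 2191 and 1081 CPM in mock, 959.6 and 267.3 CPM in aversive, 534.1 and 520.2 CPM in appetitive, and 1237, 1321 and 270.4 CPM in neutral libraries (ENSMUSG00000024190, chr17:26505590-26562128, - strand). The exons of Dusp1 overlap those of Ergic1 on the other strand, so the reads of the overlap cannot be assigned. The differences of Dusp1 from mock were -1.04 in aversive (SE 0.859, adjusted p = 0.692), -1.25 in appetitive (SE 0.867, adjusted p = 0.363) and -0.41 in neutral libraries (SE 0.745, adjusted p = 0.918). Those of Ier2 were -0.25 (SE 1.01, adjusted p = 0.957), -0.83 (SE 1.03, adjusted p = 0.622) and -1.37 (SE 0.918, adjusted p = 0.624).

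None of the 10 genes passed in any of the 7 comparisons with edgeR. Over all 19754 tested genes, 0% passed in aversive against mock, 1.98% in appetitive against mock, 2.02% in both together against mock, 0.0861% in neutral against mock, 0.0405% in aversive against neutral, 6.17% in appetitive against neutral and 1.80% in appetitive against aversive. At an unadjusted p under 0.05 the count was 1 in appetitive against mock (Arc, where 23.8% of genes passed), 1 in neutral against mock (Fosb, 13.5%) and 1 in appetitive against neutral (Fosb, 29.3%). It was 0 in aversive against mock (9.96% of genes), in both together against mock (24.5%), in aversive against neutral (19.1%) and in appetitive against aversive (20.0%). DESeq2 called Fosb in neutral against mock, where it called 7.71% of genes, and in appetitive against neutral (29.4%). It called 0 members in aversive against mock (8.40%), appetitive against mock (29.4%), both together against mock (18.8%), aversive against neutral (16.5%) and appetitive against aversive (24.2%). By the unadjusted p, the share of members that passed was below that of all genes in each comparison. A miss of the threshold does not show equal levels, since the SE of the fold changes ran from 0.691 to 2.25 log2 units for the 9 members other than Npas4.

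Libraries of 2 groups were fully separated for few members. Against mock, Arc was higher in every aversive library (11.4% of all genes were), in every appetitive library (9.78%) and in all 4 together (3.01%). Fosb was lower than all of mock in the aversive (24.7% of genes) and the neutral libraries (15.9%), and Nr4a1 in the appetitive libraries (38.9%). Fosb was also higher in aversive than in neutral libraries (14.4%). Fos, Fosb and Arc, 3 of the 10 members, were higher in both appetitive libraries than in all neutral ones (11.4% of genes) and than in both aversive ones (8.34%). Some of these separations rest on the TMM scale, whose factor was 0.48 in appetitive replicate 1. By total counts, Fos in that library (13476 of 26647573) was below aversive replicate 1 (18345 of 27159427) and neutral replicate 1 (66641 of 60077131). Arc there (2141 counts) was below neutral replicate 2 (11112 of 67650693) by total counts. On that scale Arc in aversive replicate 3 (1640 of 39172609) was below mock replicate 3 (2199 of 49880042). Fosb in aversive replicate 3 (977 counts) was above mock replicate 1 (678 of 29194873). Fosb in aversive replicate 1 (427 counts) was below neutral replicate 2 (1363 counts).

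**Figure D3:**
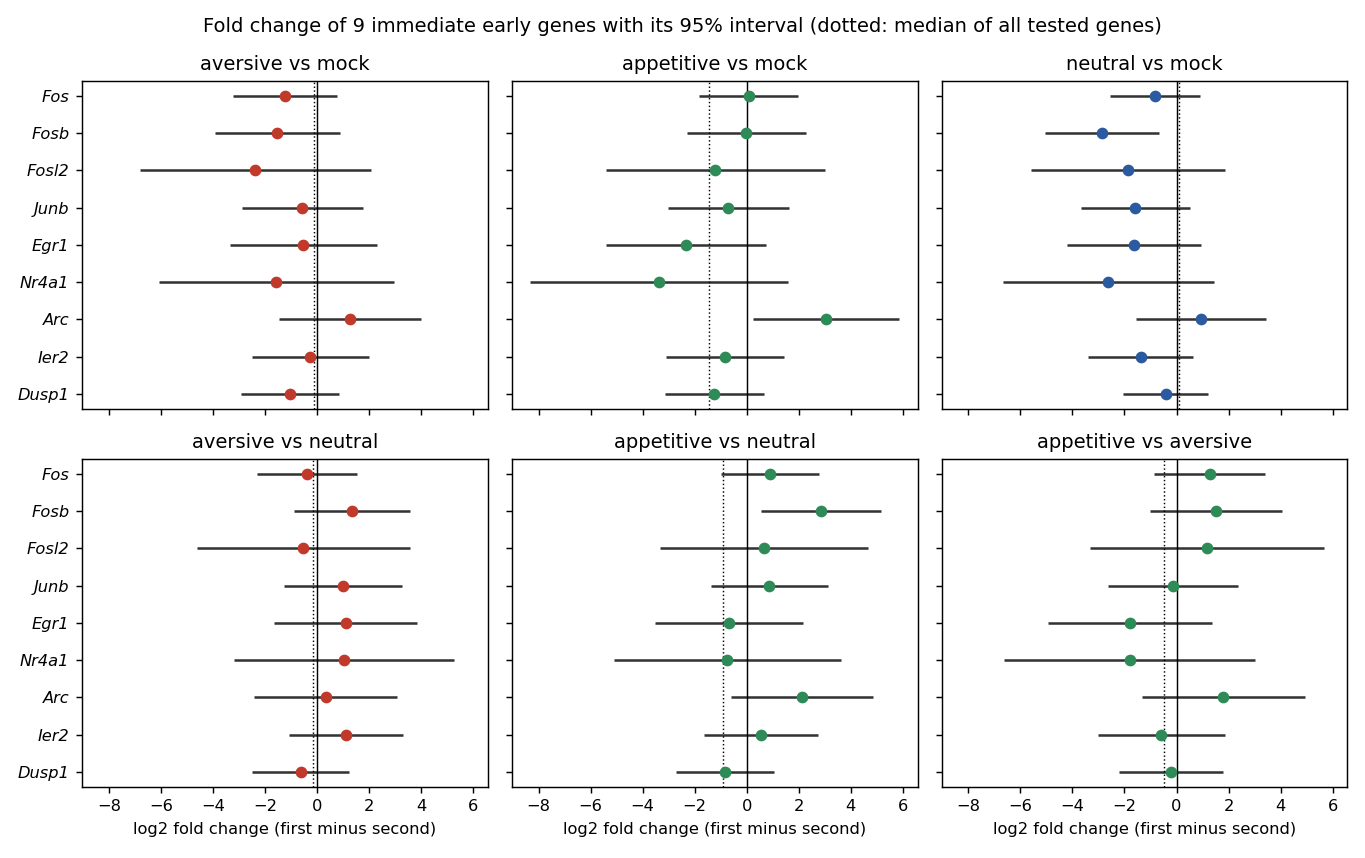
Log2 fold change of 9 members (rows, without Npas4) in 6 comparisons, with a point for the estimate, a bar for its 95% interval, a solid line at 0 and a dotted line at the median of all tested genes. The intervals of Arc in appetitive against mock, and of Fosb in neutral against mock and in appetitive against neutral, leave out 0.

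The median of the members was below 0 in each comparison with mock. Its place relative to all genes rested on single libraries, except in neutral against mock. In aversive against mock 9 of 10 members had a negative estimate, with a median of -1.12 against -0.13 for all tested genes. Without aversive replicate 3 it was 6 of 10, with a median of -0.41 above the -1.86 of all genes, without aversive replicate 1 the median was -2.33 (all genes -0.69), and without mock replicate 2 it was -0.40 (all genes -0.16). In appetitive against mock 8 of 10 were negative, and the members' median of -1.02 lay above the -1.45 of all genes. It was -0.55 without appetitive replicate 2 (all genes -4.77), -1.60 without mock replicate 1 (all genes -1.56) and -0.35 without mock replicate 2 (all genes -1.69). With all libraries, the median of all genes in appetitive against mock was -1.17 with DESeq2 size factors and -1.93 with library size alone. Levels relative to mock thus shift with the scale in the appetitive group. In neutral against mock, a comparison across kits, 8 of 10 were negative (median -1.48, all genes 0.08). The median was -0.84 without mock replicate 2 (all genes -0.04), and it was below that of all genes in each fit that left out a library. Appetitive against aversive gave 4 positive and 5 negative estimates, with Npas4 at 0 in both, and a median of -0.07 against -0.48. Without aversive replicate 1 all 9 other members were positive (median 1.33), and without aversive replicate 3 their median was -0.76. Npas4, at or near 0, is in these counts and medians, with a negative estimate in aversive and in appetitive against mock and a positive one in neutral against mock. The estimates within 1 comparison share the same libraries and are not independent of each other.

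In CPM, the summed level of the members varied several-fold within mock, aversive and neutral libraries and little between the appetitive pair. By share of counts that pair was apart, at 0.132% in replicate 1 and 0.332% in replicate 2, whose TMM factors were 0.48 and 1.13. Together they made up 0.100% to 0.727% of a library's counts, at 1617, 7091 and 5004 CPM in mock, 4103 and 858.4 CPM in aversive, 2746 and 2948 CPM in appetitive, and 2609, 3486 and 807.2 CPM in neutral libraries. Mock replicate 1, aversive replicate 3 and neutral replicate 3 were the low libraries in CPM. By share of counts appetitive replicate 1 (0.132%) was also low, below mock replicate 1 (0.139%). Over the 36 pairs of the 9 members other than Npas4, Pearson's r of log2(CPM + 1) across the 10 libraries ran from -0.33 to 0.93 with a median of 0.46, and in the 7 libraries of 1 kit from -0.61 to 0.92 with a median of 0.38. The closest pairs were Junb with Ier2 (0.93) and Egr1 with Nr4a1 (0.84), and Arc had an r of 0.18 with Fos and -0.20 with Egr1. These are descriptions over libraries that share depth and composition.

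Heat shock genes, which tissue handling induces, varied with the members across libraries. Their summed level (7 genes) was 337.1, 1932 and 1097 CPM in mock, 1131 and 792.0 CPM in aversive, 1242 and 925.8 CPM in appetitive, and 689.7, 667.6 and 619.4 CPM in neutral libraries. In CPM, the lowest and the highest mock library for the members were also the lowest and the highest for these genes. Pearson's r of the summed log2 CPM with that of the members was 0.65 over 10 libraries (Spearman's rho 0.70), 0.69 in the 7 libraries of 1 kit, and 0.85 without the 2 libraries farthest from the members' median. For the markers of cell types the r over 10 libraries, in the 7 libraries and without those 2 libraries was 0.08, -0.40 and -0.03 for neurons, 0.31, 0.37 and 0.37 for microglia, 0.19, -0.36 and 0.04 for astrocytes, and 0.51, 0.35 and -0.05 for oligodendrocytes. It was 0.21, 0.43 and 0.58 for endothelium, 0.22, -0.12 and 0.12 for oligodendrocyte precursors, and -0.35, -0.16 and -0.06 for choroid plexus. Spearman's rho over 10 libraries was 0.14, 0.48, -0.01, 0.45, 0.52, 0.27 and -0.32 in that order. The part of tissue handling or of these cell types in the members' levels was not tested.

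**Figure D4:**
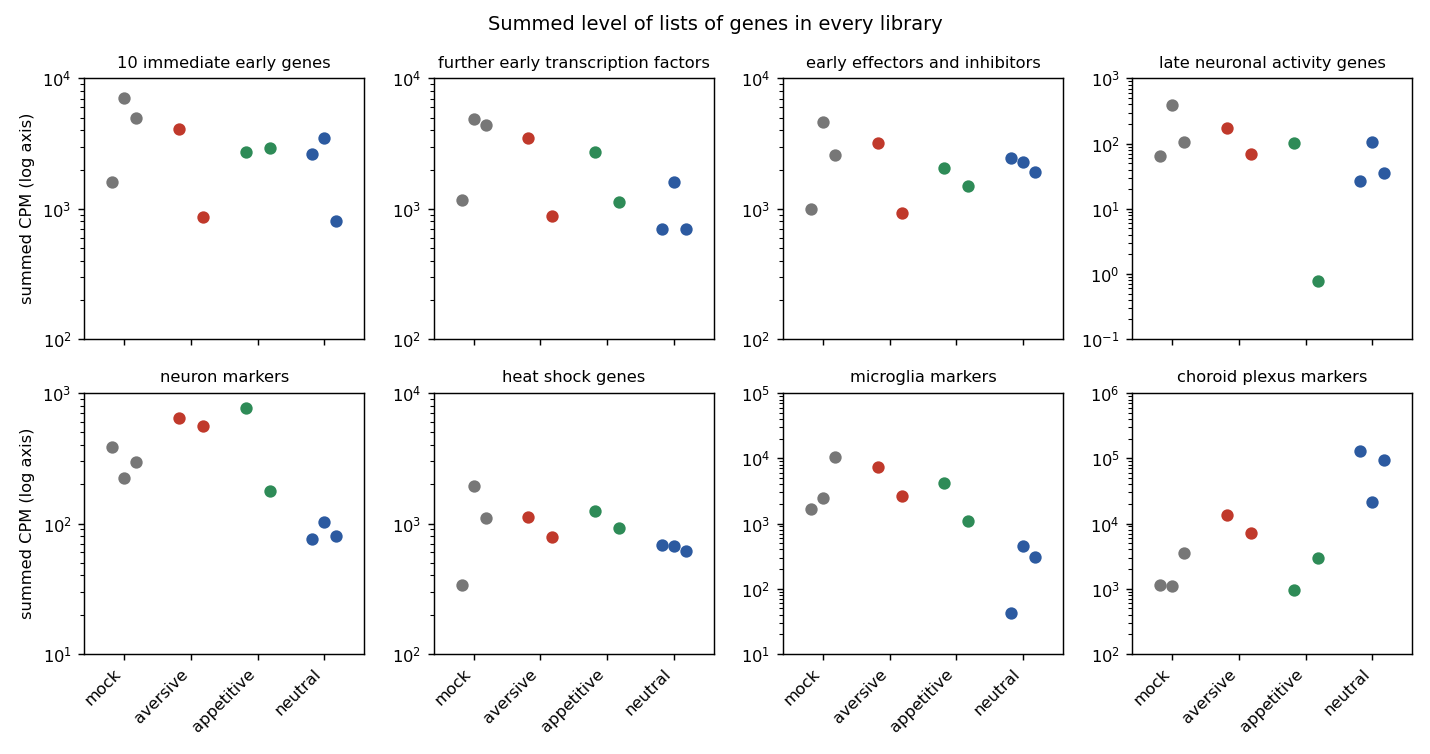
Summed CPM (log axis) of 8 lists of genes in each library, with 1 point per library in the 4 groups. Within mock the members range from 1617 to 7091 CPM and the heat shock genes from 337.1 to 1932 CPM, while neuron markers are lowest and choroid plexus markers highest in the 3 neutral libraries.

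The wider program of early genes was described from 4 lists. Of 21 further immediate early transcription factors, 0 passed in aversive against mock (0% of all genes), appetitive against mock (1.98%) or both together against mock (2.02%). Over the 7 comparisons 1 of 21 passed, in appetitive against neutral, where 6.17% of all genes did. It was Atf3, a stress-induced partner of AP-1 subunits. Atf3 was at 199.9, 955.2 and 735.3 CPM in mock, 1091 and 96.0 CPM in aversive, 811.3 and 291.7 CPM in appetitive, and 11.08, 33.06 and 7.008 CPM in neutral libraries. All 3 neutral libraries were below all others, and appetitive exceeded neutral by 5.02 on the log2 scale (SE 1.14, edgeR adjusted p = 0.0329), a comparison across kits. Jun, the AP-1 subunit with the highest mean level of this list, was at 214.0 to 1673 CPM in mock and 205.8 to 339.7 CPM in the 4 aversive and appetitive libraries, with -1.54 for both together against mock (SE 0.679, adjusted p = 0.192). In neutral against mock 20 of the 21 had a negative estimate, with a median of -2.02. At an unadjusted p under 0.05 the list had from 0 genes in aversive against mock (9.96% of all genes) to 6 in both together against mock (24.5%), and DESeq2 called from 0 in aversive against mock (8.40% of all genes) to 5 in appetitive against mock (29.4%).

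Of 18 early-induced effectors and feedback inhibitors, 0 passed in any of the 7 comparisons with edgeR, where 0% to 6.17% of all genes passed. At an unadjusted p under 0.05, the count ran from 1 of 18 in aversive against mock (9.96% of all genes) to 5 of 18 in neutral against mock (13.5%) and appetitive against neutral (29.3%). DESeq2 called from 1 in aversive against mock (8.40%) and aversive against neutral (16.5%) to 3 in appetitive against mock (29.4%), both together against mock (18.8%) and appetitive against neutral (29.4%). The pair with the highest mean level were Sgk1, a kinase that stress hormones also induce, and Nfkbia, the inhibitor of NF-kB. Sgk1 differed from mock by -0.66 in aversive (SE 0.754, adjusted p = 0.797) and 0.24 in appetitive libraries (SE 0.736, adjusted p = 0.859), and Nfkbia by -0.09 (SE 0.959, adjusted p = 0.984) and -0.58 (SE 0.973, adjusted p = 0.725). The summed level of this list had an r of 0.77 with that of the members over 10 libraries, and the list of transcription factors one of 0.81.

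The late neuronal activity-induced genes, which follow the early factors in neurons, were sparsely detected in tagged libraries. Of their 16 genes, 0 to 2 had at most 3 counts in a mock library, against 6 to 15 in a tagged library, and 15 were tested. Of the 21 further transcription factors, 0 to 1 had so few counts in a mock library and 1 to 7 in a tagged library. The share of all genes with so few counts was not computed, so the sparseness is not shown to be particular to this list. Their sum was 64.64 to 394.1 CPM in mock, 68.77 and 172.9 CPM in aversive, 102.1 and 0.785 CPM in appetitive, and 26.52 to 105.7 CPM in neutral libraries. Rasl11a, a Ras-like protein, was the only 1 of the 15 to pass with edgeR. It passed in both together against mock (adjusted p = 0.0425, 2.02% of all genes) and in appetitive against neutral (adjusted p = 0.0401, 6.17%). It had 0 counts in aversive replicate 1 and in both appetitive libraries, 18 counts in aversive replicate 3, and 5.967 to 37.46 CPM in mock and 8.873 to 68.74 CPM in neutral libraries. Ptgs2, the inducible cyclooxygenase and the gene with the highest mean level of the list, ran from 1.989 to 306.9 CPM within mock alone. DESeq2 called from 3 genes of the list in aversive against mock (8.40% of all genes) to 9 in appetitive against mock (29.4%), all lower in both. It called 4 higher and 2 lower in aversive against neutral (16.5%) and in appetitive against neutral (29.4%). In appetitive against aversive (24.2%) 2 were called higher and 4 lower. The number of genes with at least 1 count was 20596 to 30899 in mock and 14144 to 24189 in tagged libraries, ranges that overlap.

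The 18 upstream factors and kinases include SRF, CREB and the MAP kinases that induce the family. With edgeR 0 of them passed in any comparison, where 0% to 6.17% of all genes passed. From 0 in aversive against mock (9.96% of all genes) to 5 in appetitive against neutral (29.3%) had an unadjusted p under 0.05. DESeq2 called from 0 in aversive against mock (8.40%) and neutral against mock (7.71%) to 5 in appetitive against neutral (29.4%). Mapk3 differed from mock by 0.45 in aversive (SE 0.829, adjusted p = 0.89) and 0.84 in appetitive libraries (SE 0.826, adjusted p = 0.521).

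The genes whose pattern over the 10 libraries was most like that of Fos were not immediate early genes of the lists. Among 4654 genes with at least 10 counts in every library, the highest r of log2(CPM + 1) with Fos belonged to Kbtbd2 (0.86), Renbp (0.83), Mtr (0.82), Kazn (0.79) and Synrg (0.78). Among the members it was highest for Dusp1 (0.77), followed by Ier2 (0.63), Fosb (0.53) and Junb (0.51). Without neutral replicate 3 and aversive replicate 3, the 2 libraries farthest from the median of Fos, the r of the 5 leading genes fell to 0.19 to 0.36 and that of Dusp1 to 0.40, so these likenesses rest on those 2 libraries.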

How the data were processed

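RNA was measured by RNA-seq in 10 libraries of hippocampal material, and whether the mock material was sorted is not settled. The study's text calls the sorted material nuclei in 1 place and cells in another. The authors aligned the first 40 bp of reads to mm10 (STAR), assigned them to Ensembl genes without regard to strand (featureCounts) and deposited raw counts for 53379 genes. Total counts were 16968588 to 67650693 per library. The floor of 3 counts covers counting error only.

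Groups came from the sample titles. All 10 libraries were fitted in 1 edgeR 4.0.16 quasi-likelihood model with 4 groups (R 4.3.3, TMM factors 0.48 to 1.45, filterByExpr, 19754 genes, common dispersion 1.49, prior of 5.05 degrees of freedom). P-values are two-sided, adjusted over all tested genes by Benjamini-Hochberg, with 0.05 as the threshold. SEs come from edgeR's F, and 95% intervals from t quantiles with 9.05 to 11.0 degrees of freedom. CPM are TMM-normalized. Exon lengths and positions are those of GENCODE M21 (GRCm38), promoters those of RefSeq (GRCm38.p6). The members and the lists of genes were chosen with earlier results of these data known. Named beside the members were the called genes of each pathway list, otherwise the 2 with the highest mean CPM, and the 5 genes most like Fos. Of the genes under this rule, 1 is left out of the text and counted only in totals. Alternatives were DESeq2 1.42.0, other scalings and filters, fits of the compared groups alone, with or without a replicate block, and leaving out each library. The fitting steps were tested on simulated data, with 200 genes changed 64-fold up or down in the appetitive libraries. In appetitive against mock, 59 of these 200 passed, as did 2 unchanged genes, so most of these 200 were missed. How often a change of that size would be missed at the levels and SEs of the members was not tested. Data of the study other than RNA-seq were not analysed here.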

Additional observations from a re-analysis of the deposited data

How the results depend on the processing

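With edgeR, the count of members called was 0 in all 7 comparisons with DESeq2 size factors, library size alone or at least 10 counts in every library. Of all genes, these settings called 0 to 1159, 0 to 1203 (of 19754) and 0 to 147 (of 4661) in a comparison. The last setting kept 7 of the 10 members, so the others could not be called. The count of members was 1 in appetitive against mock with no filter (Nr4a1, adjusted p = 0.0473) and with the groups fitted alone (Arc, adjusted p = 0.0417). With DESeq2 it was 1 in neutral against mock and 1 in appetitive against neutral (Fosb in both). Leaving out each library in turn gave 0 to 1 in each of the 4 comparisons that hold the appetitive group, the 1 being Egr1 without appetitive replicate 2, and 0 in the other comparisons. Without any 1 of the mock libraries, no gene at all passed in a comparison with mock. Arc in appetitive against mock ranged from 2.48 to 3.19 over the fits that left out a library.

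The replicate numbers were not taken to pair libraries: between mock and neutral the correlations of same-numbered deviations were 0.201, 0.113 and 0.0273. In the fits with that number as a replicate block, 0 members were called, and of all genes 0 to 54 passed in a comparison. In that fit Junb (0.19) and Ier2 (0.18) in aversive against mock, Fosb (0.28) in appetitive against mock, Arc (-0.83) in neutral against mock and Fosl2 (-2.79) in appetitive against neutral had the opposite sign. No paired analysis was possible for appetitive against aversive because they share only replicate 1.

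Of 1108 recomputed fold changes 54 had the opposite sign, none of them called. Fosb in appetitive against mock was 0.34 with DESeq2 and with its size factors, 0.05 with no filter and 0.10 with the groups alone. Junb in appetitive against aversive was 0.05 with DESeq2 and 0.06 with its size factors. With library size alone, Fos was -0.34 in appetitive against mock, Arc -0.21 in aversive against neutral, Fosl2 -0.62, Junb -0.15 and Ier2 -0.23 in appetitive against neutral, and Fosl2 -0.17 in appetitive against aversive. With at least 10 counts in every library, Fos was -0.44 in appetitive against mock. The remaining reversals came from leaving out 1 library, with these ranges of log2 fold changes. In aversive against mock they were -1.74 to 0.04 for Junb, -2.56 to 0.26 for Egr1 and -2.35 to 0.56 for Ier2. In appetitive against mock they were -0.48 to 0.32 for Fos and -1.24 to 0.41 for Fosb. In aversive and appetitive together against mock they were -1.69 to 0.10 for Ier2. In neutral against mock they were -1.33 to 1.49 for Arc and -0.92 to 0.13 for Dusp1. In aversive against neutral they were -2.22 to 0.41 for Fos, -0.08 to 2.50 for Junb, -0.85 to 1.91 for Egr1, -0.60 to 2.59 for Arc, -5.86 to 3.12 for Nr4a1, -0.89 to 2.19 for Ier2, -1.79 to 0.03 for Dusp1 and -2.88 to 0.36 for Fosl2. In appetitive against neutral they were -0.51 to 2.36 for Junb, -5.81 to 0.18 for Egr1, -7.50 to 1.34 for Nr4a1 and -6.92 to 1.58 for Fosl2. In appetitive against aversive they were -1.57 to 0.86 for Junb, -6.97 to 0.06 for Egr1, -8.61 to 5.0 for Nr4a1, -1.40 to 1.33 for Ier2, -0.87 to 0.87 for Dusp1 and -6.44 to 3.53 for Fosl2. The cause of these changes was not tested. The common dispersion corresponds to a coefficient of variation of 122% between libraries of a group.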
